A study of Homo sapiens with 21 samples.

Results

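S100 proteins are small calcium sensors of vertebrate cells. The 10 genes S100A2, S100A4, S100A6, S100A8, S100A9, S100A10, S100A11, S100A14, S100A16 and S100P, which include the epithelial and the motility-linked members of the family, were followed through all RNA-seq libraries of a study of the DNA adenine methyltransferase METTL4 in hypoxic tumor cells. They were taken by gene symbol from the tables' Ensembl identifiers. All 10 had values in at least 1 of 4 expression tables, which together list 20970 genes. FADU, a head and neck squamous carcinoma line, and BFTC909, a transitional carcinoma line of the renal pelvis, were each kept with Scr-si (scrambled control) at 18% oxygen (normoxia), with Scr-si at 1% oxygen (hypoxia), or with METTL4-si at 1% oxygen, for 18 h, with 2 libraries per group. FADU cells carrying a control vector, overexpressing METTL4, or overexpressing the long noncoding RNA RP11-390F4.3 were kept in normoxia, again with 2 libraries per group. The last set, in hypoxic FADU, holds 1 CRISPR control and 2 clones with METTL4 mutated at its catalytic site by prime editing, so each mutant library stands for 1 clone. The labels number the replicates without saying whether they were separate cultures, so p-values measure only the spread between these libraries. Values are TMM-normalized CPM (gene counts scaled to a common library size), and each table was normalized on its own. In the mutant set 42.8%, 43.0% and 40.9% of the column totals lay on entries that are no single gene, against 0% elsewhere. CPM of the mutant set are therefore on a lower scale and cannot be set against those of the other sets. A member was called when limma on log2(CPM + 1) gave a Benjamini-Hochberg adjusted p under 0.05 over all tested genes and a fold of 1.3 or more.

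S100 proteins dimerize, and most of them change shape when calcium fills their EF-hand loops, which exposes a surface that docks onto target proteins. S100A10 is an exception: it no longer binds calcium and is held in a stable complex with annexin A2 at the plasma membrane. S100A4 binds non-muscle myosin and is linked to motility and metastasis. S100A2 is a gene of basal squamous epithelium and a known target of the transcription factor p63. S100A8 and S100A9 together form calprotectin, a secreted ligand of TLR4 and of the receptor RAGE, abundant in neutrophils and in stressed keratinocytes. Except for S100P on chromosome 4, the members lie on chromosome 1, most of them in the S100 cluster beside the genes of the cornified envelope.

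The starts of 4 members are shown. These genes were called for hypoxia or METTL4-si, and their promoters hold the core letters of a hypoxia response element. Such an element is the site bound by hypoxia-inducible factors. Each line gives the 250 bases before a RefSeq start (GRCh38.p14, read 5′ to 3′ on the minus strand of chromosome 1), with ACGTG or GCGTG on either strand in capitals. Overlapping matches were counted as 1.
S100A2 at chr1:153565845-153566094: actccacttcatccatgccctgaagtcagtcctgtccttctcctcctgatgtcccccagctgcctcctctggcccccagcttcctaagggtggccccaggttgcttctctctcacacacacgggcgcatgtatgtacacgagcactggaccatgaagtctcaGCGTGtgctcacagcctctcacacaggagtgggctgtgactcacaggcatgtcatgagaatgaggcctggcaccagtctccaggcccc
S100A10 at chr1:151993860-151994109: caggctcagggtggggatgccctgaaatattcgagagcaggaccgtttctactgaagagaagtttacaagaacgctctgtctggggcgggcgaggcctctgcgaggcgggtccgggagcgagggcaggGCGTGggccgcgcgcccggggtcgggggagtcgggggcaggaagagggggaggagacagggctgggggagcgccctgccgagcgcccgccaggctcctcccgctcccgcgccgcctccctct
S100A6 at chr1:153535992-153536241: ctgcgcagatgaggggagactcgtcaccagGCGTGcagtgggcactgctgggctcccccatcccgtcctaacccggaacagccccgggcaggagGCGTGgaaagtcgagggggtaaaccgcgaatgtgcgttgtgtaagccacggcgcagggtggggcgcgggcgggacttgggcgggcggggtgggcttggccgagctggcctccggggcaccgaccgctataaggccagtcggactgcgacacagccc
S100A16 at chr1:153609356-153609605: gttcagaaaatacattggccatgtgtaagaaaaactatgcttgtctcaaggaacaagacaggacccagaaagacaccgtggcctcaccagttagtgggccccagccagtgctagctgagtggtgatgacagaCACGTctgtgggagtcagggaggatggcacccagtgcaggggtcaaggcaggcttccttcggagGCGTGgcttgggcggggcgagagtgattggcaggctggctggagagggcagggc
The core lies 88 bases before this start of S100A2, 122 bases before that of S100A10, 220 and 156 bases before that of S100A6, and 118 and 54 bases before this start of S100A16. The other start of S100A2 and the other start of S100A16 held none of these letters in the same window. S100A11, not shown, held GCGTG 9 bases before its start and was not called for hypoxia or METTL4-si in the main limma fit. The starts of S100A14, called with METTL4-si in FADU, and of S100A4 and S100A9, called with METTL4 overexpression, held none. A link between core and response was not tested. The 10 members have 14 starts in RefSeq, and 35.7% of these held a core, against 43.2% of 35116 promoters of the same length. On the hg19 build of the expression tables (GRCh37 annotation), S100A2 spans chr1:153533584-153540366, S100A10 chr1:151955391-151966335, S100A6 chr1:153507075-153508720, S100A16 chr1:153579362-153585621 and S100A14 chr1:153586731-153589462, and the expression values count reads over each gene's exons.

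**Figure D1:**
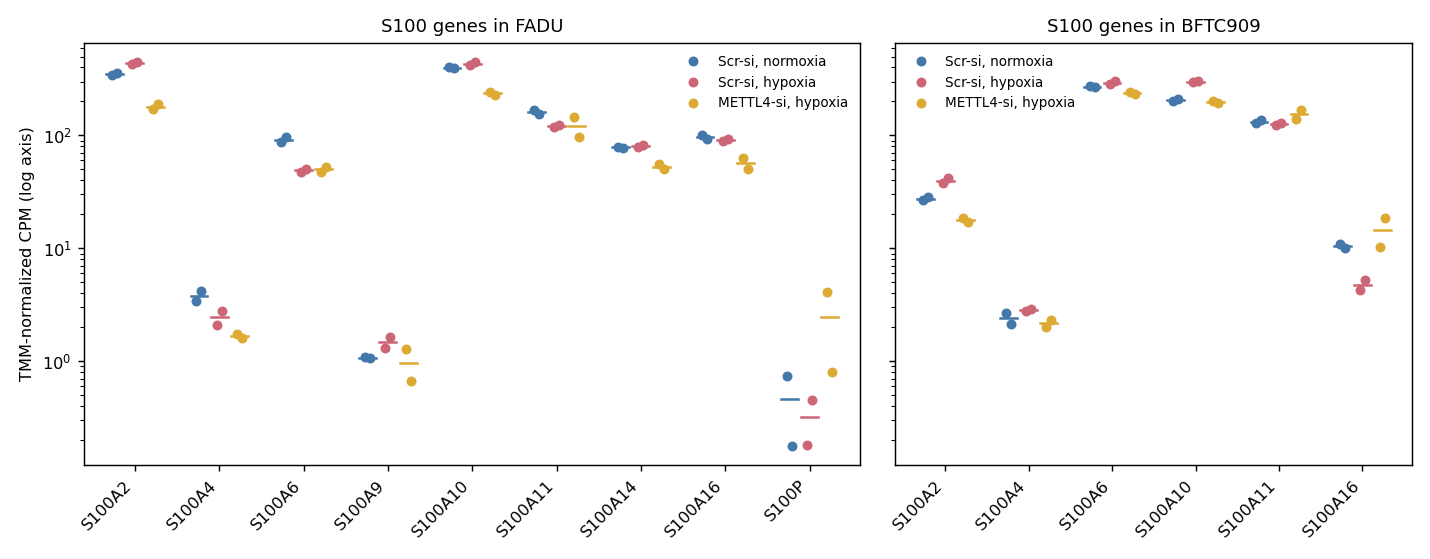
TMM-normalized CPM (log axis) of the S100 genes in the 6 FADU and the 6 BFTC909 knockdown libraries; points are libraries, horizontal bars are group means, and genes without a value in a table are left out. S100A2 and S100A10 were lower in both METTL4-si libraries than in both hypoxic Scr-si libraries in each line, while S100A16 sat below them in FADU and above them in BFTC909.

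Every member with a value in BFTC909 also had one in FADU, and their order by level differed between the 2 lines. In the knockdown table of FADU under normoxia, S100A10 had the highest level per length, 592 CPM per kb of exonic sequence, followed by S100A2 (359), S100A11 (287), S100A6 (212), S100A16 (82.5), S100A14 (74.6), S100A4 (7.41), S100A9 (1.88) and S100P (0.984). The ranges of neighbours in this order did not overlap. In hypoxic FADU with Scr-si the order was the same, but S100A16 (77.7) and S100A14 (76.8 CPM per kb) overlapped. The single CRISPR control library of the mutant table, also hypoxic FADU, had another order: S100A10 (559 CPM per kb) was followed there by S100A6 (229), S100A2 (168) and S100A11 (146). BFTC909 had values for 6 members: S100A6 led with 624 CPM per kb in normoxia, before S100A10 (308), S100A11 (235), S100A2 (28.2), S100A16 (8.90) and S100A4 (4.70). The basal squamous gene S100A2 thus stood above S100A6, or calcyclin, in the FADU libraries with Scr-si, but below it in the FADU CRISPR control and in BFTC909. These levels come from separately normalized tables, and the difference between lines was not tested. S100A8 was measured only in the overexpression table. S100A11 has processed pseudogenes, and S100A4 overlaps S100A3 on the same strand, so the reads of both members are less certain than those of the others.

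The 18 knockdown and overexpression libraries held about 19000000 to 25400000 reads on genes, and the 3 libraries of the mutant set about 17800000 to 20100000 reads. CA9, a standard hypoxia gene, was at 2.33 and 2.55 CPM in normoxic and at 31.0 and 37.8 CPM in hypoxic FADU with Scr-si, and with METTL4-si in hypoxia it was at 1.87 and 2.22 CPM. In BFTC909 it was at 0.358 and 1.17 CPM in normoxia, at 54.0 and 56.2 CPM in hypoxia and at 5.53 and 5.84 CPM with METTL4-si. In normoxic FADU CA9 was at 0.906 and 0.744 CPM with the control vector, at 9.39 and 9.15 CPM with METTL4 and at 13.6 and 13.2 CPM with RP11-390F4.3. CA9 therefore fell to or towards its normoxic level in the hypoxic METTL4-si libraries of both lines and rose with either overexpression. METTL4 RNA was at 26.6 and 25.3 CPM with Scr-si and at 24.2 and 27.1 CPM in the hypoxic FADU libraries labelled METTL4-si, so the RNA does not show the knockdown there. In hypoxic BFTC909 it was at 19.0 and 15.6 CPM with Scr-si and at 14.4 and 12.2 CPM with METTL4-si (adjusted p = 0.0717). The squamous markers TP63 and KRT5 were high in FADU (KRT5 at 1340 to 2819 CPM in the knockdown table). Of the 7 urothelial markers 1 had values in BFTC909, GATA3, which was below 1 CPM in 5 of 6 libraries, so the labelled origin of that line is not shown by them, and its collagen and other fibroblast markers (5 of 6 with values) moved with the groups: they summed to 1020 and 1114 CPM in normoxia, to 4447 and 4652 CPM in hypoxia and to 2481 and 2680 CPM with METTL4-si. Markers of luminal breast cells stood apart in 4 libraries, in BFTC909 by GREB1 and not by their sum. In FADU, 6 of 8 had values. They summed to 112 and 15.9 CPM in normoxia, 25.5 and 23.4 CPM in hypoxia with Scr-si, and 537 and 20.6 CPM with METTL4-si. TFF1 was at 0 in the 4 libraries with low sums. The libraries with sums of 112 and 537 CPM also had GATA3 at 41.1 and 216 CPM and the fibroblast marker COL3A1 at 20.3 and 109 CPM. In the other FADU knockdown libraries GATA3 was at most 3.19 CPM and COL3A1 at most 0.0447 CPM. In BFTC909, 3 of 8 had values, led by CA12. They summed to 455 and 468 CPM in normoxia, 1116 and 1145 CPM in hypoxia with Scr-si, and 461 and 591 CPM with METTL4-si. GREB1 was at 121 CPM in METTL4-si replicate 2 against 1.52 to 10.6 CPM in the other libraries, and this library is counted with the 4 for GREB1. The calls of the members that rest on these libraries are also given without them, and the part of the breast and fibroblast markers in the results was not tested.

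To see how oxygen alone acted on the family, hypoxic and normoxic Scr-si libraries were compared within each line. In FADU, S100A6 fell. It was at 87.0 and 96.7 CPM in normoxia and at 47.5 and 50.5 CPM in hypoxia, so that the groups were well apart. The means differed 1.88-fold and the log2 fold change was -0.89 ± 0.09 (SE, adjusted p = 0.00139), and it was -0.97 without normoxia replicate 1, the library with raised breast markers (adjusted p = 0.0111). It was the only member called of the 8 tested, with 9.65% of all tested genes called downwards and 9.73% upwards; 0 members were called upwards by limma, by edgeR, or at an unadjusted p under 0.05 with the same fold. The median log2 fold change was -0.02 over the members and -0.03 over all genes. In such bulk libraries fewer cells of a type and less RNA per cell cannot be told apart.

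S100A2 was at 343 and 358 CPM in normoxic and at 428 and 448 CPM in hypoxic FADU. Its groups did not overlap, but its 1.25-fold difference (log2 fold change 0.32 ± 0.08, adjusted p = 0.0260) stayed under the 1.3-fold limit. The squamous markers did not move as one: TP63 rose from 195 and 206 CPM to 306 and 330 CPM (adjusted p = 0.0122), and KRT14 (log2 fold change 0.78) and DSG3 (0.55) rose. KRT6A fell (-0.63), and KRT5 was at 2819 and 2580 CPM in normoxia against 2023 and 2245 CPM in hypoxia (adjusted p = 0.0506). S100A10 went from 402 and 393 CPM to 418 and 446 CPM and S100A14, an epithelial member, from 79.1 and 78.1 to 79.6 and 82.4 CPM, neither with a call. S100A4 was at 3.45 and 4.15 CPM in normoxia against 2.11 and 2.78 CPM in hypoxia (adjusted p = 0.0682), and it was called (log2 fold change -0.59) once the libraries with raised breast markers were left out. S100A11, an annexin A1 partner, was at 167 and 156 CPM in normoxia and at 119.8 and 125 CPM in hypoxia (adjusted p = 0.142). The fit takes its spread from all 3 groups, and S100A11 was at 147 and 97.0 CPM in the METTL4-si libraries. In a fit of the 2 compared groups alone, limma called S100A11 (log2 fold change -0.40, adjusted p = 0.000135) and S100A4 (-0.48, adjusted p = 0.02). S100A16 overlapped between the groups, at 101 and 92.3 CPM against 89.1 and 93.1 CPM, and S100A9 stayed between 1.07 and 1.64 CPM. S100P was below 1 CPM in each of these 4 libraries and was not tested.

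In hypoxic BFTC909, S100A2 and S100A10 rose and S100A16 fell. S100A10 was at 204 and 210.1 CPM in normoxia and at 296 and 304 CPM in hypoxia, a 1.45-fold difference (log2 fold change 0.53 ± 0.06, adjusted p = 0.000517). S100A2 was at 26.9 and 28.2 CPM against 37.6 and 41.9 CPM, a 1.44-fold difference (0.51 ± 0.09, adjusted p = 0.00388). In both genes each hypoxic library lay above each normoxic one. S100A16 was at 10.8 and 10.0 CPM in normoxia and at 4.29 and 5.26 CPM in hypoxia (log2 fold change -0.99 ± 0.24, adjusted p = 0.0127). Without any 1 of these 4 libraries S100A16 was not called, with log2 fold changes from -0.87 to -1.11. The fit takes its spread from all 3 groups, and S100A16 was at 10.3 and 18.5 CPM in the METTL4-si libraries. A fit of the 2 compared groups alone kept the call. Of the 6 members tested, 2 were thus called upwards and 1 downwards, with 17.9% and 18.3% of all tested genes called in these directions (21.6% and 14.2% with libraries centred on their median). The median log2 fold change was 0.15 over the members and -0.02 over all genes. The fibroblast markers summed to more in both hypoxic libraries than in both normoxic ones.

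S100A6 did not follow its FADU pattern in BFTC909, where it was at 272 and 269.6 CPM in normoxia and at 284 and 304 CPM in hypoxia (log2 fold change 0.11 ± 0.07, adjusted p = 0.190). S100A4 was at 2.69 and 2.14 CPM against 2.79 and 2.91 CPM, and S100A11 at 129 and 136 CPM against 125 and 128 CPM, without a call. The difference between the lines was not tested, since their tables were normalized separately.

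**Figure D2:**
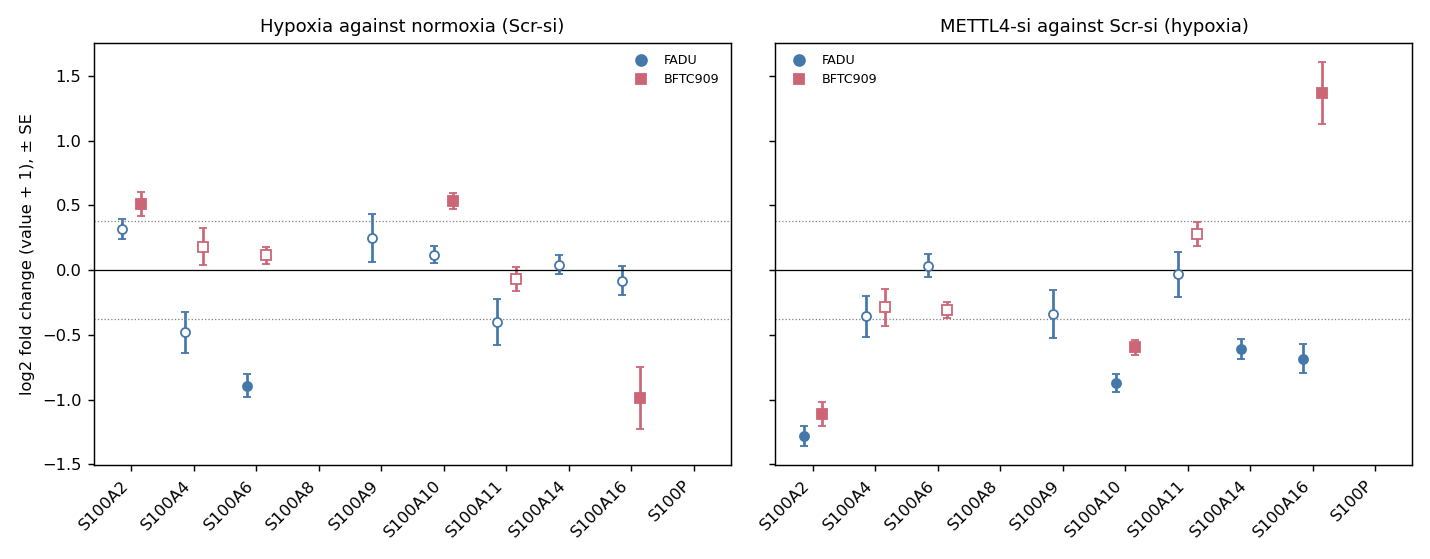
Log2 fold change on the log2(CPM + 1) scale, with its SE, of each tested S100 gene in FADU (circles) and BFTC909 (squares), for hypoxia against normoxia on the left and METTL4-si against Scr-si in hypoxia on the right. Filled symbols were called, and dotted lines mark 1.3-fold; S100A2 and S100A10 lie below the lower line in both lines on the right, and S100A16 lies at -0.69 in FADU and 1.37 in BFTC909.

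The effect of METTL4-si was then tested in hypoxia, against the same hypoxic Scr-si libraries that served the oxygen comparison. In FADU, 4 of 8 tested members fell in the libraries labelled METTL4-si, with 15.3% of all tested genes called downwards; 0 members were called upwards by limma, by edgeR or at an unadjusted p under 0.05 with the same fold, with 12.5% of all genes called upwards. The median log2 fold change was -0.48 over the members and 0.02 over all genes. S100A2 showed the largest difference of the members tested. It was at 428 and 448 CPM with Scr-si and at 170.3 and 189.7 CPM with METTL4-si, a 2.43-fold lower mean (log2 fold change -1.28 ± 0.08, adjusted p = 0.000202). Both METTL4-si libraries were also below the normoxic ones (343 and 358 CPM). TP63 fell from 306 and 330 CPM to 161 and 210.2 CPM (adjusted p = 0.00438). KRT14 (-1.15) and KRT5 (-0.61) fell as well, while DSG3 (-0.18) and KRT6A (0.36) were not called. The part of these squamous markers in the S100A2 result was not tested.

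S100A10, the annexin A2 partner, was at 418 and 446 CPM with Scr-si and at 241 and 230.4 CPM with METTL4-si (1.83-fold lower, log2 fold change -0.87 ± 0.07, adjusted p = 0.000382). The epithelial members S100A14 and S100A16, which neighbour each other on chromosome 1, fell as well. S100A14 was at 79.6 and 82.4 CPM against 55.5 and 50.1 CPM (-0.61 ± 0.07, adjusted p = 0.00167). S100A16 was at 89.1 and 93.1 CPM against 62.9 and 50.3 CPM (-0.69 ± 0.11, adjusted p = 0.00494), and its adjusted p was 0.0545 without Scr-si hypoxia replicate 2. All 4 genes lay lower in each METTL4-si library than in each Scr-si library, and their log2 fold changes without the libraries with raised breast markers were between -0.68 and -1.20.

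The other members did not pass. S100A6, already low in hypoxic FADU, was at 47.5 and 50.5 CPM with Scr-si and at 47.7 and 52.8 CPM with METTL4-si (log2 fold change 0.03 ± 0.09, adjusted p = 0.786). S100A4 was at 2.11 and 2.78 CPM against 1.75 and 1.60 CPM (-0.36 ± 0.16, adjusted p = 0.124). The METTL4-si replicates disagreed for the remaining members, and replicate 1, the library with raised breast markers, was the higher one each time. S100A11 was at 147 CPM in replicate 1 and 97.0 CPM in replicate 2, on both sides of the Scr-si values of 119.8 and 125 CPM; its log2 fold change was 0.27 without replicate 2 and -0.33 without replicate 1. S100A9 was at 1.28 and 0.667 CPM, against 1.303 and 1.64 CPM with Scr-si, and was called (-0.56) only when replicate 1 was left out. S100P, an ezrin-binding member, was at 4.11 CPM in replicate 1 and at 0.801 CPM in replicate 2, against 0.180 and 0.456 CPM with Scr-si.

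In BFTC909 with METTL4-si, S100A2 and S100A10 fell and S100A16 rose. S100A2 was at 37.6 and 41.9 CPM with Scr-si and at 18.7 and 17.1 CPM with METTL4-si (2.22-fold lower, log2 fold change -1.11 ± 0.09, adjusted p = 0.000242). S100A10 was at 296 and 304 CPM against 201 and 194 CPM (1.51-fold lower, -0.60 ± 0.06, adjusted p = 0.000508). The S100A10 levels with METTL4-si were near the normoxic 204 and 210.1 CPM, whereas those of S100A2 lay below its normoxic 26.9 and 28.2 CPM. Without METTL4-si replicate 2, the library with raised GREB1, the log2 fold changes were -1.05 for S100A2 and -0.57 for S100A10. TP63 was at most 1.08 CPM in all 6 BFTC909 libraries, and the fibroblast markers summed to less with METTL4-si than with Scr-si in hypoxia. The counts were 2 members down and 1 up of 6 tested, with 11.7% and 13.2% of all tested genes called in these directions (16.9% and 10.0% with libraries centred on their median). The median log2 fold change was -0.30 over the members and 0.01 over all genes.

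S100A16 was at 4.29 and 5.26 CPM with Scr-si and at 10.3 and 18.5 CPM with METTL4-si in hypoxic BFTC909 (3.02-fold higher, log2 fold change 1.37 ± 0.24, adjusted p = 0.00516). The higher of both METTL4-si values came from replicate 2, the library in which GATA3 stood at 128 CPM. Without that library the log2 fold change was 0.98 and still called, and replicate 1 sat at the normoxic level of 10.8 and 10.0 CPM. Without Scr-si hypoxia replicate 1 the adjusted p was 0.0560. S100A11 was likewise higher in replicate 2 (168 CPM) than in replicate 1 (139.9 CPM), against 125 and 128 CPM with Scr-si (adjusted p = 0.0548), and it was called (0.41) only when replicate 1 was left out. S100A6 was at 284 and 304 CPM against 243 and 231 CPM, with an adjusted p of 0.0111 but a difference of 1.24-fold, under the limit of 1.3; it passed with libraries centred on their median (-0.40). S100A4 was at 2.79 and 2.91 CPM against 2.02 and 2.32 CPM (adjusted p = 0.168).

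**Figure D3:**
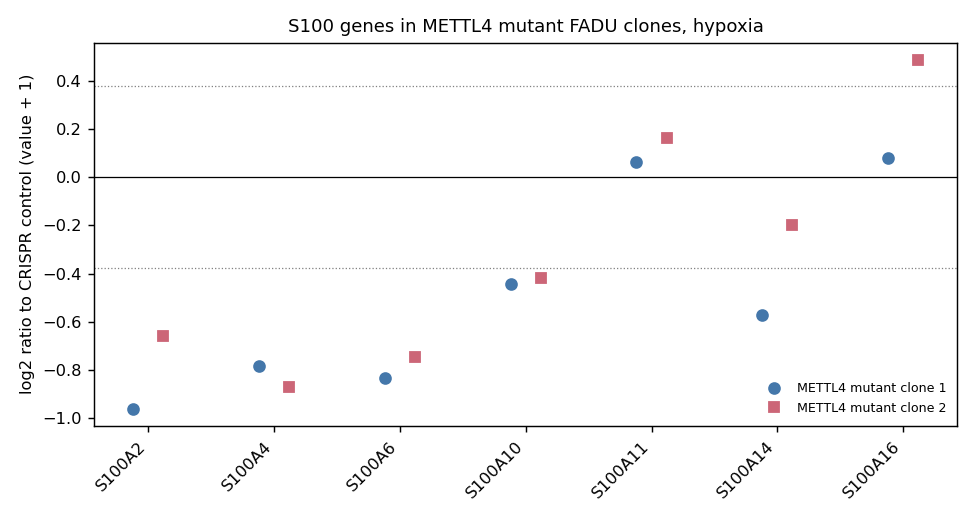
Log2 ratio of each METTL4 mutant FADU clone to the CRISPR control on the log2(CPM + 1) scale, in hypoxia, for the 7 S100 genes with values; dotted lines mark 1.3-fold. S100A2, S100A4, S100A6 and S100A10 lie below the lower line in both clones.

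The FADU clones with METTL4 mutated at its catalytic site were likewise grown in hypoxia. With 1 control library and 1 library per clone there is no replicate check and no test. METTL4 RNA was at 12.5 CPM in the CRISPR control and at 15.9 and 10.6 CPM in the clones; a change of catalytic residues need not alter it. Of the 7 members with values, 4 were past 1.3-fold downwards in both clones and 0 upwards, with 11.8% of the 15719 genes of the table past the fold downwards and 8.94% upwards in both clones. The median of the mean log2 ratio was -0.43 over the members and -0.0040 over all genes.

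S100A2 was at 165 CPM in the control and at 84.1 and 103.8 CPM in clones 1 and 2. S100A10 was at 375 CPM in the control and at 275 and 281 CPM in the clones. Both genes were thus lower in the mutant clones as in the METTL4-si libraries. S100A6 was at 99.6 CPM in the control and at 55.4 and 58.9 CPM in the clones, unlike with METTL4-si in FADU, where it was level with Scr-si. S100A4, the myosin-binding member, was at 4.22 CPM in the control and at 2.03 and 1.85 CPM in the clones. The clones differed for the 2 epithelial neighbours: S100A14 was at 48.1 CPM in the control, 32.0 CPM in clone 1 and 41.8 CPM in clone 2, and S100A16 at 55.5, 58.7 and 78.1 CPM. S100A11 was at 82.1, 85.9 and 92.0 CPM. TP63 was at 156 CPM in the control and at 127 and 112 CPM in the clones. The 5 squamous markers summed to 2067 CPM in the control and to 1379 and 1789 CPM in clones 1 and 2.

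**Figure D4:**
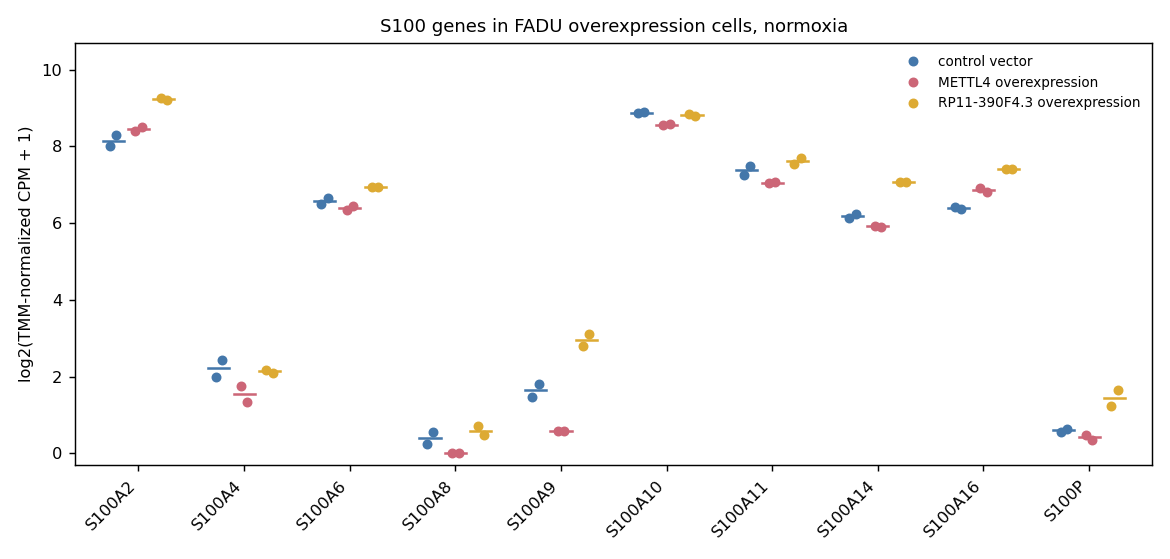
Log2(CPM + 1) of the 10 S100 genes in normoxic FADU with a control vector, METTL4 or RP11-390F4.3; points are libraries and horizontal bars group means. The RP11-390F4.3 libraries are the highest for S100A2, S100A14, S100A16, S100A9 and S100P, and both METTL4 libraries lie at 0 for S100A8.

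Gain of function was examined in normoxic FADU. METTL4 RNA was at 35.4 and 32.7 CPM with the control vector and at 158 and 139 CPM with METTL4 overexpression. The RP11-390F4.3 columns carry another name in the table and were given to that group because no other group was left, and the transcript itself could not be matched to an identifier, so its overexpression is not checked here. With METTL4, S100A16 rose while S100A9 and S100A4 fell. S100A16 was at 85.0 and 80.8 CPM with the control vector and at 119 and 111 CPM with METTL4 (1.39-fold higher, log2 fold change 0.47 ± 0.05, adjusted p = 6.39e-06). S100A9 was at 1.76 and 2.51 CPM against 0.497 and 0.498 CPM, or 37 and 54 reads against 10 and 11 (-1.06 ± 0.16, adjusted p = 0.000157). S100A8, its calprotectin partner, had 4 and 10 reads with the control vector and 0 reads in both METTL4 libraries, which allows up to 0.149 and 0.136 CPM; it was too low to be tested, and read floors and counts cover counting error only.

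S100A4 was at 3.01 and 4.42 CPM with the control vector and at 2.39 and 1.54 CPM with METTL4 (log2 fold change -0.67 ± 0.17, adjusted p = 0.00790). It was not called without control vector replicate 2 (adjusted p = 0.0961) or without METTL4 replicate 2 (adjusted p = 0.109). Of 9 tested members, 1 was called upwards and 2 downwards, with 8.00% and 10.5% of all tested genes called in these directions, and the medians were -0.27 over the members and 0.01 over all genes. The abundant members moved by less than 1.3-fold: S100A2 was at 258 and 310.3 CPM against 339 and 360.4 CPM (adjusted p = 0.00292), S100A10 at 463 and 478 CPM against 377 and 379.8 CPM (adjusted p = 8.23e-05). Without control vector replicate 2, S100A2 was called upwards (0.44). S100A11 was at 153 and 179 CPM against 130.3 and 132 CPM, and was called downwards (-0.45) without control vector replicate 1. S100A14 was at 68.9 and 74.1 CPM against 59.6 and 59.0 CPM, and S100A6 at 88.7 and 99.8 CPM against 80.4 and 86.1 CPM. S100P was at 0.477 and 0.558 CPM against 0.398 and 0.272 CPM. Of the squamous markers, TP63 (log2 fold change 0.04, adjusted p = 0.607 by limma) and KRT14 (-0.07) were not called with METTL4. DSG3 (-0.55) and KRT5 (-0.42) fell, and KRT6A (0.56) rose.

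With RP11-390F4.3 overexpression, compared with the same control vector libraries, 5 of 9 tested members rose, with 16.5% of all tested genes called upwards (12.8% with libraries centred on their median). None was called downwards: the count was 0 by limma, by edgeR and at an unadjusted p under 0.05 with the same fold, with 12.5% of all genes called downwards (18.2% when centred). The median was 0.85 over the members and 0.01 over all genes. S100A2 was at 258 and 310.3 CPM with the control vector and at 612 and 589.7 CPM with RP11-390F4.3 (2.11-fold higher, log2 fold change 1.08 ± 0.07, adjusted p = 2.61e-08). TP63 rose from 227 and 206 CPM to 393 and 384 CPM (adjusted p = 1.18e-08) and KRT6A rose (1.48), whereas KRT5 fell (-0.76) and KRT14 (0.33) and DSG3 (0.18) were not called. S100A16 was at 85.0 and 80.8 CPM against 169 and 169 CPM (2.04-fold higher, 1.02 ± 0.05, adjusted p = 1.84e-09). S100A14 was at 68.9 and 74.1 CPM against 134 and 133 CPM (1.87-fold higher, 0.89 ± 0.05, adjusted p = 8.21e-09).

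Of the low members, S100A9 was at 1.76 and 2.51 CPM with the control vector and at 6.0 and 7.67 CPM with RP11-390F4.3 (3.20-fold higher, log2 fold change 1.32 ± 0.16, adjusted p = 1.42e-05). S100P was at 0.477 and 0.558 CPM against 1.37 and 2.14 CPM (adjusted p = 0.00104); it entered the test only through its RP11-390F4.3 values and no longer passed the filter without either of these libraries. Without it the counts were 4 of 8 members, with a median log2 fold change of 0.63. The higher S100P value came from library 2, in which the luminal breast markers summed to 56.6 CPM, against 14.7 to 20.01 CPM in the other 5 libraries of the table. The log2 fold changes of S100A2, S100A16, S100A14 and S100A9 without library 2 were 1.11, 1.02, 0.90 and 1.17, each called. S100A6 was at 88.7 and 99.8 CPM against 121 and 121 CPM, just under 1.3-fold (1.29-fold, adjusted p = 0.000169), and was called (0.45) without control vector replicate 2. S100A10 was at 463 and 478 CPM against 462 and 439.6 CPM, S100A11 at 153 and 179 CPM against 184 and 205 CPM, and S100A4 at 3.01 and 4.42 CPM against 3.54 and 3.26 CPM.

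Whether both gains of function differed was tested directly. S100 levels were lower with METTL4 than with RP11-390F4.3 for 8 of the 9 tested members, against 18.4% of all tested genes called downwards (14.5% with libraries centred on their median); 0 members were called upwards by limma, by edgeR or at an unadjusted p under 0.05 with the same fold, with 13.3% of all genes called upwards (19.1% when centred). The median was -0.58 over the members and 0.00 over all genes. S100A9 had a log2 fold change of -2.38 ± 0.16 (adjusted p = 4.54e-08), S100A14 one of -1.16 ± 0.05 and S100P one of -1.03 ± 0.17. These sizes depend on the pseudocount for the low members: S100P was at -2.38 by edgeR and at -0.34, without a call, with a pseudocount of 5. S100A2 (-0.78), S100A4 (-0.58), S100A11 (-0.56), S100A16 (-0.55) and S100A6 (-0.54) were also called. S100A10 was the exception, with a log2 fold change of -0.25 ± 0.04 that stayed under 1.3-fold. Without library 2 the other 7 called members were called again, with log2 fold changes from -0.48 for S100A11 to -2.22 for S100A9. S100P no longer passed the filter without either RP11-390F4.3 library (the count without it was 7 of 8), and S100A4 was not called without library 1 (adjusted p = 0.0658) or without METTL4 replicate 2 (adjusted p = 0.148).

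Binding partners and receptors of S100 proteins were followed as a list of 13 genes, 12 of them tested in each table. With METTL4-si in FADU 7 fell and 2 rose, beside 15.3% and 12.5% of all tested genes; the largest changes were those of PLAT, the tissue plasminogen activator (log2 fold change 1.09 ± 0.12), ANXA5 (-0.85 ± 0.06) and ANXA2 (-0.78 ± 0.09). ANXA2, the partner of S100A10, was at 1054 and 1100.3 CPM with Scr-si and at 585 and 673 CPM with METTL4-si in hypoxic FADU. In BFTC909 3 fell and 1 rose with METTL4-si, beside 11.7% and 13.2% of all tested genes: AHNAK (-0.86 ± 0.11), a scaffold of the S100A10 and annexin A2 complex, PLAT (0.65 ± 0.09), EZR (-0.63 ± 0.06), and ANXA2 (-0.60 ± 0.09), which the naming rule of 3 genes would leave out and which was added after its value was seen. ANXA2 was there at 1930 and 1984 CPM with Scr-si and at 1393 and 1203 CPM with METTL4-si. In the mutant clones ANXA2 was at 482 and 541 CPM against 728 CPM in the control. Under hypoxia 3 genes of the list rose and 1 fell in FADU (9.73% and 9.65% of all tested genes), where ANXA2 went from 765 and 810 CPM to its hypoxic values (0.45 ± 0.09), while 1 rose and 2 fell in BFTC909, where 17.9% and 18.3% of all tested genes did.

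With METTL4 overexpression 4 of the 12 rose and 1 fell, beside 8.00% and 10.5% of all tested genes, and with RP11-390F4.3 5 rose, beside 16.5%. PLAUR, the urokinase receptor, was at 4.53 and 4.98 CPM with the control vector, at 9.94 and 8.79 CPM with METTL4 and at 16.7 and 17.0 CPM with RP11-390F4.3. PLAT was at 19.8 and 17.8 CPM with the control vector and at 5.62 and 6.53 CPM with METTL4 (-1.49 ± 0.10). In the direct comparison 3 were lower with METTL4, beside 18.4% of all tested genes: PLAT (-1.15), PLAUR (-0.79) and ANXA1 (-0.78). The list medians were 0.19 and -0.46 for hypoxia and METTL4-si in FADU, 0.17 and -0.08 in BFTC909, and 0.26, 0.29 and -0.05 for METTL4, RP11-390F4.3 and the direct comparison, where the all-gene medians lay between -0.03 and 0.02.

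Of the 10 other S100 genes in the list, 2 were tested in FADU and 3 in BFTC909. S100A3, which shares its strand with S100A4, fell with METTL4-si in FADU (-0.54 ± 0.14, adjusted p = 0.0269) and with METTL4 overexpression (-0.46 ± 0.13, adjusted p = 0.0157). S100A13, which overlaps S100A1 on the opposite strand, fell with METTL4-si in BFTC909 (-0.60 ± 0.10, adjusted p = 0.00420), and rose with METTL4 (0.42 ± 0.12) and with RP11-390F4.3 overexpression (0.41 ± 0.12). Under hypoxia limma called 0 of them in either line, with 0 in FADU and 1 in BFTC909 at an unadjusted p under 0.05.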

How the data were processed

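RNA-seq libraries were made by the submitters from total RNA with a ribosomal RNA depleted, stranded kit. Per the labels and the study's methods, the authors used Trim Galore for trimming, HISAT2 for alignment (build hg19), HTSeq for counting and edgeR afterwards; versions and the strand setting of the counting are not given in the sources used here. The deposited signal values are TMM-normalized CPM. Tables of the authors' own fold changes and p-values were not used. In 3 tables the values are whole multiples of 1 read, which gave the reads; the mutant table holds genes with at least 10 reads in each library. Symbols came from an annotation table.

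Each knockdown or overexpression table was fitted with limma 3.58.1 (R 4.3.3) with a trend on log2(CPM + 1), in 3 groups, over genes at 1 CPM or more in at least 2 libraries: 7 comparisons, Benjamini-Hochberg adjusted. edgeR 4.0.16 on recovered reads was an alternative. Other alternatives were pseudocounts of 0.1 and 5, no filter, a mean of at least 5, 2 groups only, centring on the median, unadjusted p, a 2-fold limit, a replicate block and leaving out libraries. The fits were tested on simulated data. Levels between genes are per kb of the Ensembl canonical exonic length (GRCh37). All members are described; of each gene list at most the 3 genes with the largest absolute log2 fold change among those called were named per comparison. Members, gene lists and markers were chosen with earlier results of these data known.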

Additional observations from a re-analysis of the deposited data

Results flagged for a closer look

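Overexpression of METTL4 and of RP11-390F4.3 differed directly, in the same limma fit, for 8 members: the log2 fold change of METTL4 minus RP11-390F4.3 overexpression was -0.78 for S100A2, -0.58 for S100A4, -0.54 for S100A6, -2.38 for S100A9, -0.56 for S100A11, -1.16 for S100A14, -0.55 for S100A16 and -1.03 for S100P. S100P entered the test only through its RP11-390F4.3 values, and without it 7 of 8 tested members were called. Of all tested genes 18.4% were called downwards and 13.3% upwards. Both METTL4 libraries were below both RP11-390F4.3 libraries for each of these members, and the share of all genes with such a separation was not counted.

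S100A6, S100A4 and S100A16 are listed because their groups did not overlap in either line and moved in opposite directions. How many of all genes do so was not counted, and the difference between the lines was not tested. With hypoxia S100A6 had a log2 fold change of -0.89 in FADU and 0.11 in BFTC909, and S100A4 one of -0.48 in FADU and 0.18 in BFTC909, of which that of S100A6 in FADU was called. With METTL4-si S100A16 had a log2 fold change of -0.69 in FADU and 1.37 in BFTC909, and both were called.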

How the results depend on the processing

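With a 2-fold limit the members called went to 0 for hypoxia in FADU and in BFTC909, to 1 for METTL4-si in FADU, 1 for METTL4 overexpression, 3 for RP11-390F4.3 overexpression, 3 for the direct comparison and 0 for the mutant clones. A mean of at least 5 CPM, which removes the low members from the test, left 1, 3 and 5 members called in these 3 overexpression comparisons, and a pseudocount of 5 left 1 for METTL4 overexpression. For hypoxia in FADU, 2 members were called with an unadjusted p, 3 in a fit of the 2 groups alone, and 2 without the libraries with raised breast markers, an alternative chosen after seeing the data; the cause of these gains was not tested. Shares of all tested genes called are given only for the main fit and, for some comparisons, for centring on the median. Member counts under the other alternatives, here and below, can therefore not be set against all genes. No member with a call reversed its direction under any of the alternatives run. Of 787 log2 fold changes under alternatives, 744 kept their side of the threshold, 32 lost a call and 11 gained one.

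Leaving out 1 library at a time gave 1 member for hypoxia in FADU, 3 to 5 members for METTL4-si in FADU, 2 for hypoxia and 2 to 4 for METTL4-si in BFTC909, 2 to 4 for METTL4 and 4 to 6 for RP11-390F4.3 overexpression, and 6 to 8 for the direct comparison. A fit with the replicate block called 1, 4, 3, 3 and 3 members for the 5 comparisons with numbered replicates, and changed no call. The labels do not say what a shared number stands for, and the deviations of same-numbered libraries correlated between -0.07 and 0.15, apart from 0.65 between normoxic Scr-si and hypoxic METTL4-si FADU, whose libraries numbered 1 are those with raised breast markers. For the comparisons with RP11-390F4.3, a replicate block from the numbers in the column names, chosen after seeing the data, called 5 and 8 members and changed no call. Low depth limits S100A8, S100P, S100A9 and S100A4, whose values rest on at most 179 reads a library. It also limits S100A16 in hypoxic BFTC909 with Scr-si, at 89 and 110 reads.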

Other observations

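Of 15 genes of the cornified envelope, the barrier of squamous epithelium whose genes lie beside the S100 cluster, 2 were tested in each table, FLG and TCHH. FLG, which encodes filaggrin, moved in hypoxic FADU and with METTL4-si: it was at 3.16 and 3.22 CPM in normoxia, at 7.46 and 12.4 CPM in hypoxia and at 1.79 and 2.18 CPM with METTL4-si in hypoxia. It rose with hypoxia (log2 fold change 1.35 ± 0.22, adjusted p = 0.00803 by limma) and fell with METTL4-si (-1.84 ± 0.22, adjusted p = 0.00167). In BFTC909 it was at 84.7 and 83.6 CPM with Scr-si and at 25.5 and 25.1 CPM with METTL4-si (-1.69 ± 0.07), without a call for hypoxia. In the mutant clones it was at 2.86 and 5.58 CPM against 11.01 CPM in the control. FLG fell with METTL4 overexpression (-0.67 ± 0.15) and rose with RP11-390F4.3 overexpression (0.76 ± 0.15), and the direct difference was -1.43 ± 0.15. TCHH, or trichohyalin, rose with hypoxia in BFTC909 (1.92 ± 0.20), from 1.34 and 1.80 CPM to 8.62 and 8.74 CPM, and fell with RP11-390F4.3 overexpression (-0.71 ± 0.22).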
